A study of Mus musculus with 2 samples.

Results

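The genes described here are 9 genes for proteins of the central myelin sheath, namely Mbp, Mog, Mag, Mobp, Cnp, Opalin, Cldn11, Ermn and Mal, chosen by name out of 21911 protein-coding genes of the mouse annotation. Their chromatin accessibility was measured in 2 single-nucleus ATAC-seq libraries of mouse brain, an assay in which the transposase Tn5 cuts open DNA and each fragment carries the barcode of its nucleus. One library held nuclei of 4 sham-operated brains and the other nuclei of the ipsilateral hemispheres of 4 stroke brains, both pooled before sequencing and labelled 48 h, from wild-type (WT) young adult male C57BL/6J mice. The stroke was a transient occlusion of the middle cerebral artery followed by reperfusion, sham mice had the surgery without it, and the olfactory bulb and cerebellum were left out. With 1 library per condition the animals cannot be separated, so no test was made and the intervals printed are 95% intervals that cover counting error only.

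Myelin is the stack of membrane that oligodendrocytes wrap around axons. Mbp and Cnp act on the cytoplasmic face of that membrane, where Mbp holds neighbouring layers together and Cnp keeps cytoplasmic channels open. Mog and Mag are adhesion proteins of the immunoglobulin superfamily on the outer and the axon-facing surface, Cldn11 forms the tight junctions between the wraps, and Mal is a proteolipid of lipid-rich membrane. Mobp is a small basic protein of compact myelin, Ermn is a cytoskeletal protein of late oligodendrocytes, and Opalin is a transmembrane protein of mature oligodendrocytes. In ATAC-seq, genes that a cell type transcribes usually carry more fragments over their promoter and body than they do in other cells.

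Fragments were counted over the gene body plus 2 kb upstream of it and expressed per 1000000 fragments of the same nuclei (CPM). After removal of barcodes with no more than 20% of their fragments in peaks, 6817 of 6979 called barcodes were kept in sham and 5054 of 8740 in stroke, with a median of 10356 and 9898 fragments per nucleus. The median share of fragments in peaks of kept nuclei was 38.8% in sham and 33.2% in stroke. Of the kept barcodes, 42 had the same sequence in both libraries. No doublet caller was applied.

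In all kept nuclei, Mbp had the highest level per length with Cnp just below it, and Mal and Ermn had the lowest. Mbp (chromosome 18 of mm10, 82475146 to 82585637) had 1.54 CPM per kb of window in sham and 1.503 in stroke. Cnp (chromosome 11, 100574904 to 100591729) had 1.35 and 1.45 CPM per kb, over a window that overlaps that of Dnajc7. Evenly spread fragments would give 0.367 CPM per kb. Ermn (chromosome 2, 58045113 to 58052864, its window overlapping Galnt5) lay below that level, at 0.207 CPM per kb in sham and 0.278 in stroke, and so did Mal (chromosome 2, 127633226 to 127656695), at 0.193 and 0.293. Mag lay below it in sham only, at 0.342 CPM per kb, against 0.463 in stroke. The members thus ranged from well above to below the genome-wide mean over nuclei of all types.

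**Figure D1:**
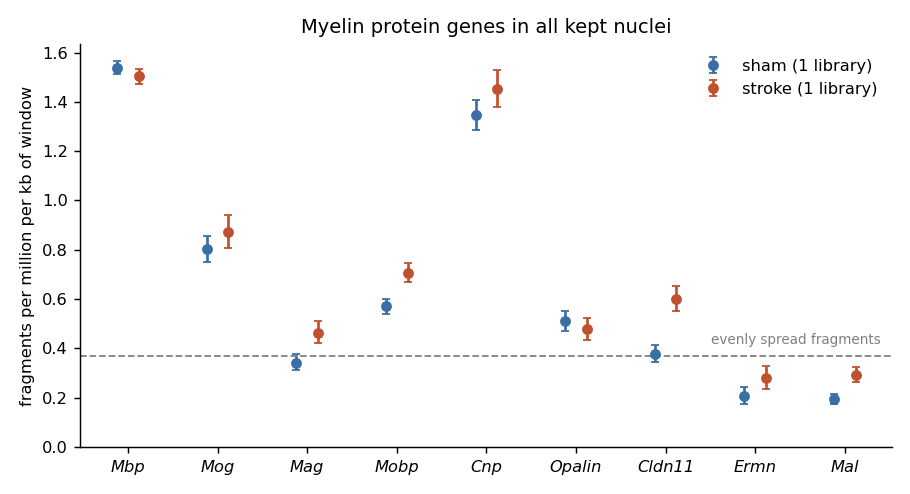
Level of each gene in all kept nuclei of the sham and the stroke library, as CPM per kb of window (gene body plus 2 kb upstream). Points are the values of 1 library each, bars are 95% Poisson intervals (counting error only), and the dashed line is the level of evenly spread fragments, 0.367. Mbp and Cnp lie highest, and Ermn and Mal lie below the line in both libraries.

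Between the libraries, 2 of the 9 genes were at least 1.5-fold higher in stroke and none was as much lower, where 8.99% of 20037 genes with at least 50 fragments were that much higher and 0.299% that much lower. All 9 members passed the minimum. Cldn11 (chromosome 3, 31149920 to 31164324) had 6.18 CPM in sham (454 fragments) and 9.85 CPM in stroke (520 fragments), a ratio of 1.59 (1.40 to 1.81). Mal had 4.91 and 7.46 CPM, a ratio of 1.52 (1.31 to 1.76). The stroke level of both genes lay outside the sham interval.

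Mag (chromosome 7, 30899176 to 30914873) had 6.06 and 8.20 CPM, a ratio of 1.35 (1.18 to 1.55). Ermn had 2.01 and 2.71 CPM, a ratio of 1.35 (1.06 to 1.70). Mobp (chromosome 9, 120149707 to 120181484) had 19.3 and 23.9 CPM, a ratio of 1.24 (1.15 to 1.34). These 3 genes were higher in stroke by less than 1.5-fold.

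The other members differed little. Mog (chromosome 17, 37010743 to 37023398) had 11.8 and 12.8 CPM (ratio 1.09, 0.982 to 1.20), and Cnp had 25.4 and 27.3 CPM (ratio 1.08, 1.01 to 1.16). Opalin (chromosome 19, 41061710 to 41077113) had 8.86 and 8.32 CPM (ratio 0.939, 0.830 to 1.06), and Mbp had 173.1 and 169.1 CPM (ratio 0.977, 0.951 to 1.004). The median log2 ratio of the 9 genes was 0.31, beside -0.04 over all genes. The share of fragments in peaks differed between the libraries as given above, and its part in these ratios was not tested. At the level of the whole library, more nuclei of a type and more open chromatin per nucleus cannot be told apart. With all called barcodes the median was 0.06, and 4 genes were lower in stroke with intervals below 0 on the log2 scale, Mbp (-0.38), Mog (-0.28), Cnp (-0.27) and Opalin (-0.22). The share of all genes that were lower with these barcodes was not computed, so the 4 genes cannot be set against a background.

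Nuclei were next assigned to classes from marker lists, and for each reported gene the oligodendrocyte gate used only the other 8 members. A nucleus entered the gate when its fragments over those genes were at least 3-fold above expectation with a Poisson probability under 0.001 and no other non-neuronal list stood higher. With all 9 genes the gate held 218 sham nuclei (3.20%, exact binomial interval 2.79 to 3.64) and 164 stroke nuclei (3.25%, 2.77 to 3.77), a ratio of shares of 1.015 (0.824 to 1.25). Mbp alone gave 67.2% of the list's fragments in sham and 62.7% in stroke, so that a nucleus with many Mbp fragments could enter the gate without the others. A stricter gate was therefore added after the data had been seen. This breadth gate left Mbp out and asked for fragments at 3 or more of the other members, and it held 63 sham nuclei (0.924%) and 84 stroke nuclei (1.66%). Its ratio of shares was 1.80 (1.28 to 2.53), against 1.015 for the first gate and 0.639 for the first gate on all called barcodes, so the share of gated nuclei has no direction that holds across these choices. The fold of 330 sham and 255 stroke nuclei lay between 2.5 and 3.5, near the threshold of the first gate.

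Depending on the gene left out, the first gate held 154 to 226 sham nuclei and 135 to 167 stroke nuclei. The gated nuclei were checked with the other marker lists. The neuronal lists have no part in the gate, whereas a nucleus with a higher fold of another non-neuronal list could not enter it, so the levels of those lists are held down in part by the gate itself. In the first gate, the summed level of the precursor (OPC), astrocyte and vascular lists was 0.741 to 0.971 times that of other nuclei, that of the microglia and myeloid list 0.921 to 1.04 times, and that of both neuronal lists 0.881 to 1.09 times. None of the 74 markers of these lists was at 0 fragments there. In the breadth gate the glutamatergic list fell to 0.719 times in sham and 0.602 times in stroke, the OPC list stood at 1.21 and 1.53 times, and the astrocyte and vascular lists at 0.947 to 1.12 times. Of the 74 markers, 1 was at 0 there in sham (Tbx18, a vascular marker) and none in stroke. In the first gate the neuronal lists thus stood about level with other nuclei, most of which were neuronal or ungated. The term oligodendrocyte-gated therefore names the gate and not a set of pure oligodendrocytes. The part of other cell types in the gated nuclei was not tested beyond these values. The neuronal class names likewise name a split of nuclei. A nucleus with no fragment on either neuronal list falls in the GABAergic class, since the glutamatergic list had a far higher expectation. The median of the GABAergic class was 6949 fragments in sham and 6234 in stroke, against 12558 and 12660.5 in the glutamatergic class.

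All 9 genes were higher in gated than in other nuclei in both libraries, by 1.25- to 3.91-fold in sham and 1.82- to 6.10-fold in stroke. The median log2 ratio over all genes was -0.00094 in sham and 0.01 in stroke, and the share of all genes with any excess was not counted. In sham 5 of 9 genes were at least 2-fold higher, where 0.633% of 16121 genes with at least 20 fragments in the gate were. In stroke 8 of 9 were, where 0.819% of genes were. The same 5 genes, Mobp, Opalin, Cldn11, Ermn and Mal, reached 2-fold in both libraries, beside 0.198% of genes. Here and below, the shares of all genes in the first gate come from nuclei gated on all 9 members. Those in the breadth gate come from nuclei gated on all members but Mbp. The counts of members come from gates that leave the reported gene out, so both sides rest in part on different nuclei. The median ratio was 2.09 in sham and 3.51 in stroke. With the breadth gate it was 5.15 and 6.33, and 8 of 9 genes in sham and 9 of 9 in stroke reached 2-fold, beside 3.09% and 2.84% of 13857 genes. A gate on 12 other myelin genes, all among the 43 genes described below, was likewise added after the data had been seen. Not all of the 12 encode myelin proteins, as the transcription factor genes Myrf and Nkx6-2 are among them. It used no member and asked for fragments at 3 or more of the 12 genes. With it 8 of 9 genes reached 2-fold in each library and in both, beside 2.54%, 1.57% and 0.723% of 15082 genes. All 9 members passed the minimum in both the first and the breadth gate.

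**Figure D2:**
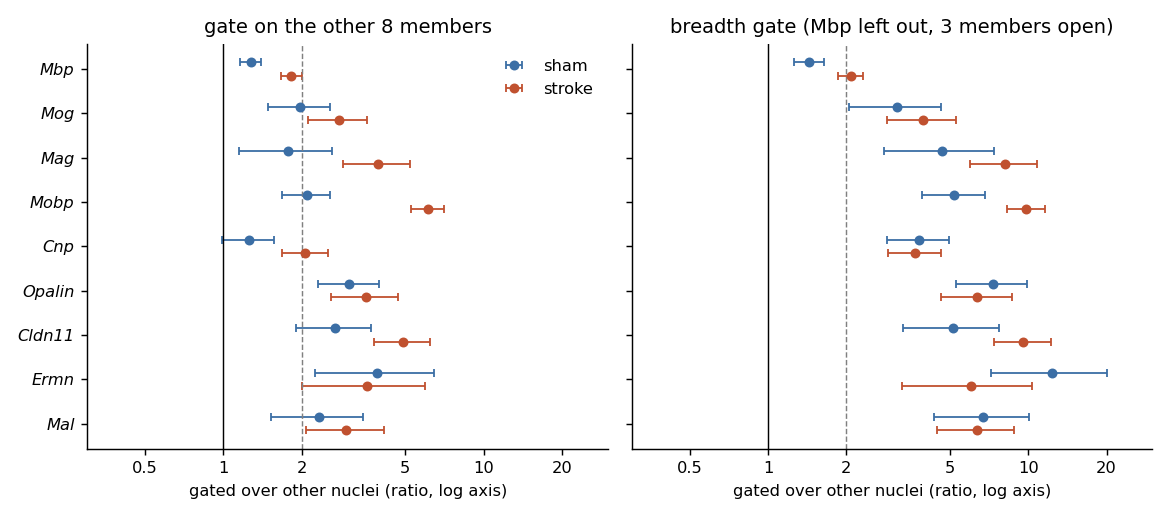
Ratio of the level in oligodendrocyte-gated nuclei to that in all other kept nuclei, for each gene and library, with the gate on the other 8 members (left) and the breadth gate (right). Points are ratios on a log axis, bars are 95% exact intervals for counting error, and the dashed line marks 2-fold. All points lie to the right of 1, and those of the breadth gate lie further right than those of the first gate.

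Mobp separated the gated nuclei most clearly in stroke. It had 38.7 CPM in gated and 18.6 CPM in other sham nuclei, a ratio of 2.09 (1.68 to 2.56), and 124.2 against 20.4 CPM in stroke, a ratio of 6.10 (5.26 to 7.06). In sham the microglia and myeloid nuclei had 45.6 CPM of Mobp (36.6 to 56.1), above the gated nuclei, with overlapping intervals. In stroke those nuclei had 23.0 CPM, and the gated nuclei stood apart from every other class. With the breadth gate Mobp had 97.1 CPM in sham and 208.2 CPM in stroke, 5.21- and 9.84-fold above other nuclei.

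Of the surface proteins, Mag had 10.4 CPM in gated sham nuclei, level with the 10.2 CPM of OPC nuclei, and 29.1 CPM in gated stroke nuclei, above the next class at 12.6 CPM with intervals apart. Its ratio over other nuclei was 1.77 (1.15 to 2.61) in sham and 3.91 (2.88 to 5.21) in stroke. Mog had 22.3 CPM in gated sham nuclei and 33.2 CPM in gated stroke nuclei, ratios of 1.97 (1.49 to 2.56) and 2.77 (2.11 to 3.57). Among the other classes, Mog had 14.2 and 16.8 CPM in the glutamatergic class against 7.16 and 8.19 CPM in the GABAergic class. Its fragments outside the gate were thus not evenly shared, though the GABAergic class also takes in nuclei without neuronal marker fragments.

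Cldn11, the tight junction gene, had 15.6 CPM in gated sham nuclei and 42.3 CPM in gated stroke nuclei, 2.68-fold (1.90 to 3.70) and 4.88-fold (3.79 to 6.22) above other nuclei. OPC nuclei came next, at 9.13 and 20.7 CPM, and their interval was apart from that of the gated nuclei in stroke but not in sham. Opalin had 25.2 and 26.7 CPM in gated nuclei, 3.04-fold (2.31 to 3.95) and 3.51-fold (2.58 to 4.70) above others. It was lowest in astrocytes, at 4.43 and 3.90 CPM. Under this gate Opalin was the member whose gated level differed least between the libraries.

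Ermn had few fragments, 18 in gated sham nuclei and 17 in gated stroke nuclei. Its levels there, 7.15 and 8.81 CPM, were 3.91-fold (2.24 to 6.42) and 3.56-fold (2.01 to 5.92) above other nuclei, the highest ratio of the 9 genes in sham. The breadth gate raised the sham ratio to 12.4 (7.21 to 20.1) and the stroke ratio to 6.03 (3.28 to 10.3). Mal had 10.9 and 20.7 CPM in gated nuclei, 2.33-fold (1.52 to 3.43) and 2.96-fold (2.07 to 4.13) above others. In stroke, vascular nuclei had 24.1 CPM of Mal (16.3 to 34.1), against 7.45 CPM (3.97 to 12.7) in sham, and their interval overlapped that of the gated nuclei.

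Cnp and Mbp set the gated nuclei apart least, Cnp in sham and Mbp in stroke. Cnp had 31.5 CPM in gated sham nuclei against 25.1 CPM in others, a ratio of 1.25 (0.987 to 1.57), and 54.3 against 26.3 CPM in stroke, a ratio of 2.07 (1.68 to 2.52). Astrocytes had 41.1 CPM of Cnp in sham, above the gated nuclei, and 52.1 CPM in stroke, just below them, with overlapping intervals in both. With the breadth gate Cnp reached 94.2 and 96.6 CPM, 3.804- and 3.68-fold above other nuclei. Over all members, the gated nuclei were the highest of 8 classes for 7 of 9 genes in sham and 8 of 9 in stroke, and their interval was apart from the next class for 2 and 5 of these. How often other genes were highest in this class was not counted, so these counts have no background beside them.

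**Figure D3:**
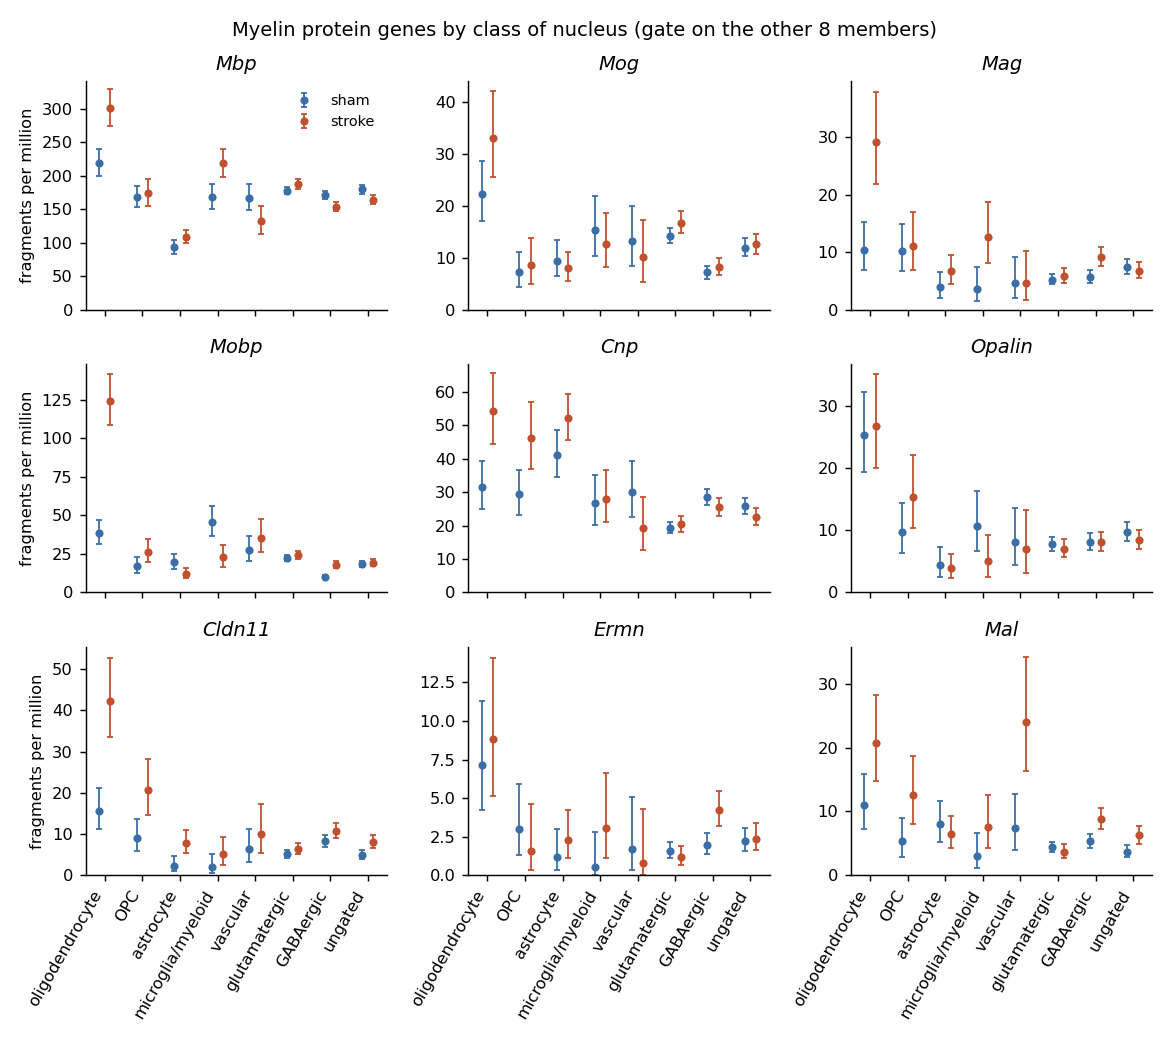
Level of each gene (CPM) in 8 classes of nuclei of the sham and the stroke library, with the oligodendrocyte gate on the other 8 members. Points are values of 1 library each and bars are 95% Poisson intervals. The oligodendrocyte-gated nuclei are highest for Mbp in both libraries (218.7 and 300.9), while astrocytes reach the same level for Cnp and, in sham, microglia for Mobp.

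Mbp had 218.7 CPM in gated and 171.8 CPM in other sham nuclei, a ratio of 1.27 (1.16 to 1.40), and 300.9 against 165.1 CPM in stroke, a ratio of 1.82 (1.66 to 2.00). Every class had Mbp fragments, from 92.8 CPM in sham astrocytes upwards. The Mbp locus has 2 groups of transcript starts in the annotation. The first, of 3 transcripts, opens the gene, where the Golli transcripts begin, and the second, of 11 transcripts and 79.3 kb downstream, is where the transcripts of the classic myelin basic proteins begin. Upstream of 2 kb before the second group, gated nuclei had 127.8 CPM in sham and other nuclei 119.0 CPM, a ratio of 1.07 (0.947 to 1.21), and in stroke 155.6 against 115.6 CPM, a ratio of 1.35 (1.18 to 1.53). Downstream, they had 90.9 against 52.9 CPM in sham, a ratio of 1.72 (1.48 to 1.99), and 145.3 against 49.7 CPM in stroke, a ratio of 2.93 (2.54 to 3.35). The intervals of the parts did not overlap in either library, so the excess of gated nuclei lay mostly in the part that begins at the second group of starts. Over the promoter at the gene start, gated nuclei were not higher, with ratios of 0.462 (0.169 to 1.01) in sham and 0.873 (0.373 to 1.74) in stroke.

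Windows were also cut into bins of 500 bp, and for each gene the bin with the largest difference between gated and other sham nuclei was read again in stroke, which had no part in the choice. For Mbp that bin (chromosome 18, 82554146 to 82554645) holds the second group of starts. It had 11.96 CPM in gated against 0.911 CPM in other sham nuclei, and 19.3 against 1.54 CPM in stroke, 12.5-fold (7.93 to 19.3) and the largest difference of the gene's 225 bins there too. By class the next level was 2.26 CPM in sham OPC nuclei and 2.36 CPM in stroke nuclei of the GABAergic class. This single bin separated the gated nuclei far more than the whole window of the gene.

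For Mobp, Mag, Cldn11 and Ermn the chosen bin was the 500 bp just before the gene start. In stroke it had 8.36 CPM in gated and 0.490 CPM in other nuclei for Mobp, 17.1-fold (8.36 to 33.6), from 15 gated fragments. It had 5.92 against 0.510 CPM for Mag, 11.6-fold (5.17 to 24.3), from 11 gated fragments. For Cldn11 it had 12.5 against 1.28 CPM, 9.78-fold (5.80 to 15.96), from 23 gated fragments. In all 3 genes this bin again had the largest difference in stroke, of 68, 36 and 33 bins. For Ermn it had 2.59 against 0.767 CPM, 3.38-fold (1.04 to 8.58), from 5 gated fragments, and ranked 3 of 20 bins.

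**Figure D4:**
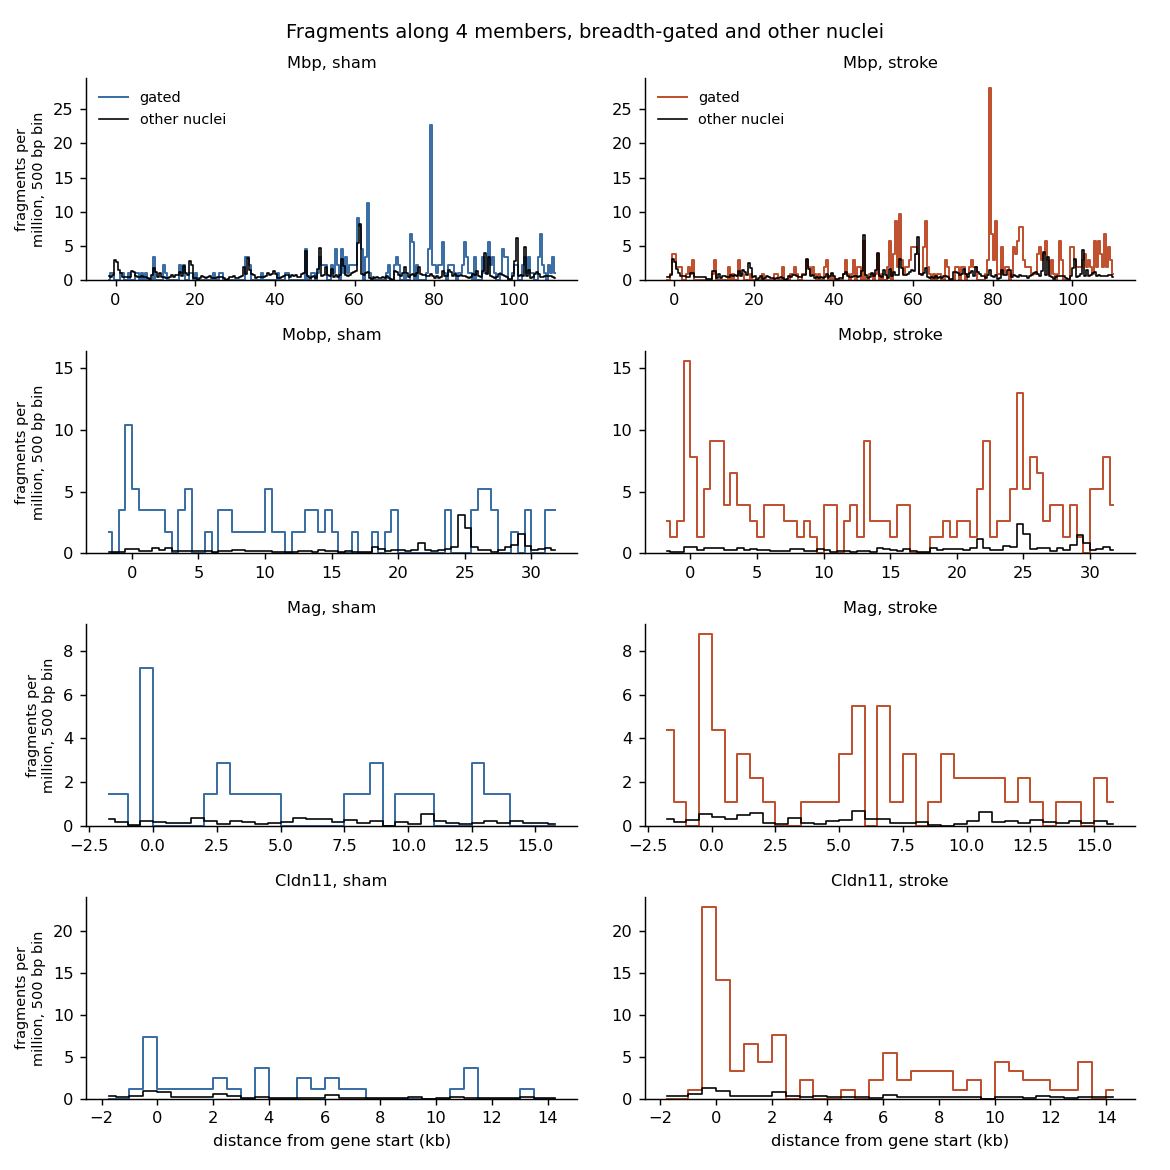
CPM in 500 bp bins along Mbp, Mobp, Mag and Cldn11 against the distance from the gene start (kb), in breadth-gated nuclei (coloured) and other kept nuclei (black) of each library. The highest bin of gated nuclei is centred 79.25 kb into Mbp, with 22.6 CPM in sham and 28.1 CPM in stroke, and just before the start of the other 3 genes.

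The bases before the annotated start of these 4 genes are shown because the largest difference between gated and other sham nuclei lay there. They were taken from RefSeq (GRCm38.p6) and are written 5′ to 3′ on the strand of the gene, ending at the last base before the gene start of the annotation. Capitals mark ACAAT or ACAAAG on either strand, cores of the sites that SOX factors such as SOX10 bind. ACAAAG was added after the Mobp sequence had been read.
Mobp, chr9:120149492-120149706, plus strand: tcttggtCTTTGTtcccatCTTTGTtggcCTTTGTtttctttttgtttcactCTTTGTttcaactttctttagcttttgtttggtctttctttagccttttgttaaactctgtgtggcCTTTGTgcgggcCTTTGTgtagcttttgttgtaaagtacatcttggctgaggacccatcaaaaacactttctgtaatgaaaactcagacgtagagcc
Mag, chr7:30914874-30915113, minus strand: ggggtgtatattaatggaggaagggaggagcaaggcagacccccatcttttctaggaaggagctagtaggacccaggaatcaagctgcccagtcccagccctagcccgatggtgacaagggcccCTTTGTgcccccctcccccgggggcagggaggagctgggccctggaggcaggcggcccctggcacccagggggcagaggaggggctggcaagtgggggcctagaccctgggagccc
Cldn11, chr3:31149670-31149919, plus strand: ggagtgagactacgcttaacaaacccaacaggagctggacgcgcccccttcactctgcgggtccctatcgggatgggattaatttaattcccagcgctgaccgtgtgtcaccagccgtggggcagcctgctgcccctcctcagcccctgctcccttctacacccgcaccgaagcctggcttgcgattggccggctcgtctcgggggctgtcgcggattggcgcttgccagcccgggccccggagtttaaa
Ermn, chr2:58052865-58053114, minus strand: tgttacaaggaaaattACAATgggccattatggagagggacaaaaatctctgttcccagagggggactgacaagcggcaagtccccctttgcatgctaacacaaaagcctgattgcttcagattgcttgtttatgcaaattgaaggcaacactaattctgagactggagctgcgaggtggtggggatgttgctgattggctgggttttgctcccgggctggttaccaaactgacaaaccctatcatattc

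The Mobp stretch held 6 ACAAAG cores, all read as CTTTGT on the strand shown. Of 27025 promoters of the RefSeq table (250 bases before to 50 after the start, 1 per gene symbol), 1 held as many, which was Mobp itself. Since ACAAAG was chosen with the Mobp sequence in view, this rank describes that sequence and is not a test. At least 1 ACAAAG was found in 4 of the 8 members in that table (Mag, Mobp, Cnp and Opalin) and in 18.7% of all promoters. ACAAT was found in 1 of the 8 members (Ermn) and in 31.6% of all promoters. The general E-box CANNTG was found in 3 of the 8 (Mag, Cnp and Opalin) and in 72.2% of all promoters, and in the members no SOX core shared a base with an E-box. The promoters also differed in base composition, from 43.3% G and C in Mobp to 66.3% in Cldn11. Such matches describe the letters and were not tested for binding.

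In the remaining genes the chosen bin lay inside the gene. For Cnp the bin 500 to 1000 bp after the start, exonic and not coding, had 8.28 against 2.05 CPM in stroke, 4.05-fold (2.23 to 6.89) and the first of 38 bins. For Mal the first 500 bp of the gene had 2.65 against 0.943 CPM, 2.81-fold (0.873 to 7.02), and ranked 2 of 51 bins. An intronic bin of Opalin, 6500 to 7000 bp after the start, had 4.80 CPM in gated sham nuclei but 1.03 CPM from 2 fragments in stroke, and ranked 13 of 35 bins. An intronic bin of Mog had 5.21 CPM in gated sham nuclei and 1.51 CPM in stroke, where it came last of 30 bins. Over the promoter window of Mog, from 2 kb before to 500 bp after its start, gated nuclei had 4.47 against 1.44 CPM in sham, 3.10-fold (1.55 to 5.65), and 17.6 against 1.79 CPM in stroke, 9.82-fold (6.45 to 14.7). Over the same window Mag, Mobp, Opalin and Cldn11 also had ratios in stroke whose intervals lay above 1. In sham this held for Mag, Mobp and Cldn11, while Opalin had 2.115-fold (0.828 to 4.53). Ermn had 5.88-fold (2.65 to 11.8) in sham and 2.36-fold (0.837 to 5.41) in stroke, Mal 4.92-fold (2.004 to 10.6) and 2.19-fold (0.777 to 4.99), and Cnp 1.006-fold (0.581 to 1.63) and 1.54-fold (0.917 to 2.45). The share of all promoters with such intervals was not computed, so these values have no background beside them.

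Within the gated nuclei, 5 of 9 genes were at least 1.5-fold higher in stroke than in sham and none was as much lower, beside 9.66% of 16121 genes higher and 10.2% lower. Those shares come from the gate on all 9 members, under which the median ratio of the members was lower, as given at the end. Mobp went from 38.7 to 124.2 CPM, a ratio of 3.21 (2.52 to 4.11). Mag went from 10.4 to 29.1 CPM (2.79, 1.73 to 4.60) and Cldn11 from 15.6 to 42.3 CPM (2.71, 1.83 to 4.06). These 3 genes had intervals well above 1, those of a surface adhesion protein, a tight junction protein and a protein of compact myelin.

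Mal had a ratio of 1.89 (1.13 to 3.19) and Cnp one of 1.73 (1.28 to 2.34). Mog had 1.49 (1.03 to 2.14), Mbp 1.38 (1.21 to 1.57), Ermn 1.23 (0.596 to 2.53) and Opalin 1.06 (0.720 to 1.56). In all other nuclei no member reached 1.5-fold in either direction, and the ratios ran from 0.919 for Opalin to 1.49 for Cldn11 and Mal. Those nuclei were mostly neuronal or ungated, and single classes among them differed more. Cldn11 had 2.36 CPM in sham and 7.79 CPM in stroke astrocytes, and 9.13 and 20.7 CPM in OPC nuclei. Mag had 3.56 and 12.6 CPM in microglia and myeloid nuclei, and Mal 7.45 and 24.1 CPM in vascular nuclei. Mobp had 45.6 and 23.0 CPM in microglia and myeloid nuclei, lower in stroke. In these 5 cases the intervals of the libraries were apart. Of 63 pairs of a gene and a class other than the gated one, the intervals were apart in 15, with the stroke level higher in 12 and lower in 3, the others lower being Mbp in GABAergic and in ungated nuclei. Such pairs were not counted over all genes, so these counts cannot be read as particular to the members.

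**Figure D5:**
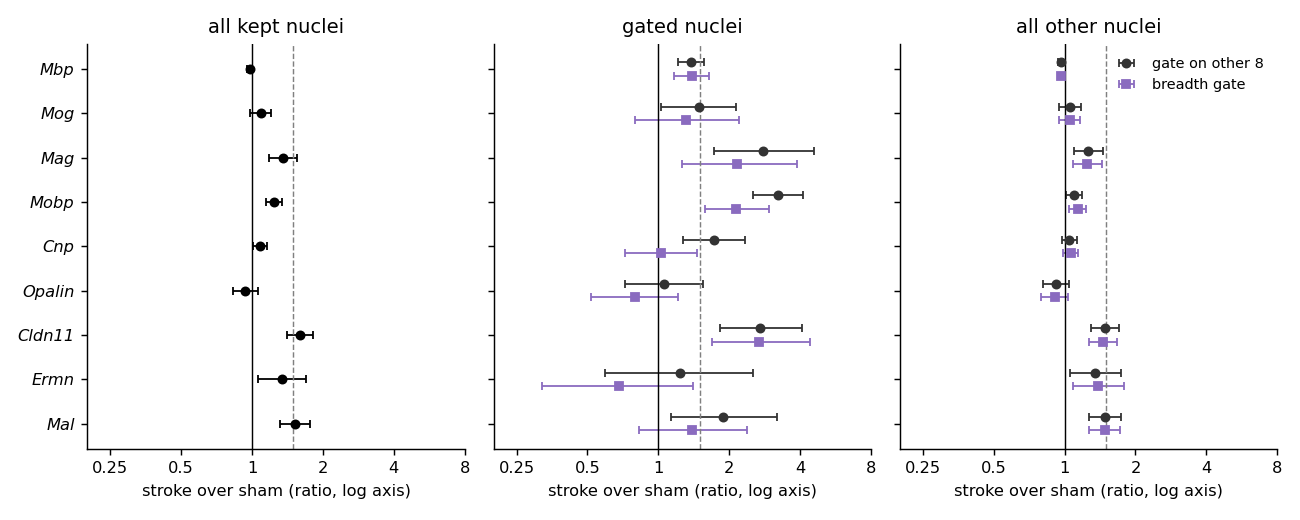
Ratio of the stroke to the sham level of each gene in all kept nuclei (left), in oligodendrocyte-gated nuclei (middle) and in all other nuclei (right), on a log axis. Circles use the gate on the other 8 members (left: no gate), squares the breadth gate, bars are 95% exact intervals for counting error, and the dashed line marks 1.5-fold. Mobp, Mag and Cldn11 lie above 1.5-fold under both gates, while Opalin and Ermn lie at 0.793 and 0.678 under the breadth gate.

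With the breadth gate 3 genes were at least 1.5-fold higher in stroke. Mag had 27.4 CPM in sham and 59.3 CPM in stroke (ratio 2.17, 1.26 to 3.87), Mobp 97.1 and 208.2 CPM (2.15, 1.57 to 2.96), and Cldn11 30.4 and 81.8 CPM (2.69, 1.69 to 4.41). Beside them 12.6% of 13857 genes were 1.5-fold higher and 15.3% lower. Mal (1.39, 0.830 to 2.38), Mbp (1.39, 1.17 to 1.65) and Mog (1.31, 0.799 to 2.20) were higher by less than 1.5-fold. Cnp had 94.2 and 96.6 CPM (1.03, 0.721 to 1.47), Opalin 60.8 and 48.2 CPM (0.793, 0.518 to 1.22) and Ermn 22.0 and 14.9 CPM (0.678, 0.321 to 1.41). With the gate on 12 other myelin genes 4 of 9 genes were 1.5-fold higher, Mobp (2.02), Cldn11 (2.02), Mag (1.88) and Mal (1.54), and Opalin was as much lower (0.656, 0.437 to 0.979), beside 10.1% of genes higher and 14.0% lower. With nuclei thinned to 3000 fragments the breadth gate held 9 sham and 22 stroke nuclei and the median log2 ratio was -0.37. Of 43 other myelin and oligodendrocyte genes, which the gate does not use, 24 were at least 1.5-fold higher in stroke in the first gate, beside 9.66% of all genes, and none was as much lower, though 9 had a ratio below 1 (lowest 0.758). In the breadth gate 11 of 41 were that much higher, beside 12.6% of all genes, and none as much lower, with 7 below 1 (lowest 0.806). How far the makeup of the gated nuclei differed between the libraries was not tested.

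Those 43 genes gave a view of the gated nuclei from outside the member list. In the first gate 6 of 43 were at least 2-fold above other nuclei in both libraries, among them Gjc3, Sox10, Zfp488, Ugt8a and Tmem125, beside 0.198% of all genes. None was 2-fold lower in both, beside 0.0124% of all genes. Their median log2 ratio was 0.47 in sham and 0.76 in stroke, beside -0.00094 and 0.01 over all genes. Gjc3, a gap junction protein of oligodendrocytes, had the highest mean ratio, with 2.76 against 1.18 CPM in sham (7 gated fragments) and 8.38 against 1.26 CPM in stroke (16 gated fragments). Klk6, a protease of mature oligodendrocytes, had ratios of 1.68 and 4.97. Sox10, the transcription factor of the oligodendrocyte lineage, had 30.8 against 9.99 CPM in sham and 30.9 against 11.5 CPM in stroke, ratios of 3.08 and 2.69. Zfp488, a transcriptional regulator of the lineage, had ratios of 2.46 and 3.18. The lowest were Cntnap1 (1.07 and 1.18), a neuronal protein of the axon beside the node, Lpar1 (1.13 and 1.09) and Tcf7l2 (0.869 and 1.09). In the breadth gate 24 of 41 genes were 2-fold higher in both libraries, beside 1.24% of all genes.

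Across 16 profiles, 8 classes in each of 2 libraries, the genes outside the gate lists that tracked the median of the 9 members most closely were Tprn (Pearson r 0.884 on log2(CPM + 1)), Sppl2b (0.844), Cldn14 (0.819), Lig3 (0.818) and Sox10 (0.817). Slc45a3, Slc12a2, Phldb1, Onecut2 and March8 followed, down to 0.797, out of 13546 genes with at least 50 fragments in the gated nuclei. Sox10 was also one of the 43 genes above. The profiles share their libraries and nuclei, and the correlation is a description. Among the members, Opalin correlated best with the median of the other 8 (0.745) and Cnp least (0.471).

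In single nuclei the members were sparse. With nuclei thinned to 3000 fragments, 81.6% of 5850 sham nuclei and 78.5% of 4343 stroke nuclei had no fragment at any of the 8 members other than Mbp, and 967 and 711 shallower nuclei were left out. Mobp had a fragment in 4.58% of sham nuclei with none of the other 7 open (4.02 to 5.19), in 4.68% of those with 1 open (3.32 to 6.39) and in 15.8% of those with 2 or more open (7.48 to 27.9). In stroke these shares were 4.62% (3.95 to 5.36), 7.97% (6.04 to 10.3) and 27.8% (18.9 to 38.2). Cldn11 had a fragment in 2.096% (1.65 to 2.63), 3.11% (1.98 to 4.63) and 13.2% (7.75 to 20.6) of such stroke nuclei, and in 1.24%, 1.91% and 1.32% of such sham nuclei, the last from 1 nucleus of 76. In sham, the shares for Mag, Cnp and Mal were 0.549%, 4.89% and 0.857% with 1 other member open, beside 1.59%, 5.95% and 1.18% with none, and 5.62%, 18.6% and 8.14% with 2 or more. Mbp was open in 34.7% of sham nuclei with none of the other 8 open, in 31.6% with 1 open and in 48.9% with 2 or more open. The share with 2 or more open was above that with none for 9 of 9 members in each library, by counts of nuclei that were often small. Other genes were not put through the same split, so whether such a rise is particular to the members was not tested.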

How the data were processed

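The authors prepared nuclei from pooled frozen tissue, made droplet-based single-cell ATAC libraries and, per the labels, processed them with Cell Ranger ATAC 2.1.0 on mm10. The deposited files hold 1 row per fragment with its position, barcode and read count, and per-barcode counts of fragments in all and in peaks. The deposited per-barcode counts sum to 103023027 and 127304829 read pairs for sham and stroke, with 76959104 and 96465679 fragments. The study states a higher sequencing depth, and the difference was not examined. From these, fragments were counted over gene windows of GENCODE M21 (gene body plus 2 kb upstream) in called barcodes with over 20% of fragments in peaks. The limits of the study on fragments in peaks, over 1000 and under 100000, were tried as well, while its limits on blacklist, nucleosome signal and start site enrichment were not applied. Each fragment counts once, as read duplicates were collapsed by barcode and position.

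Nuclei were gated on marker lists against the expectation in nuclei of no non-neuronal gate (2 passes). Nuclei in no non-neuronal gate were split by the ratio of the neuronal list folds, with 0.5 fragment added, where it was at least 2 in either direction. Nuclei without fragments on either list thus fall in the GABAergic class. Levels carry exact Poisson intervals, ratios exact conditional binomial intervals and shares exact Clopper-Pearson intervals. PCR copies and shared animals are not covered by them. The gate and the ratios were run on simulated counts with Poisson noise only. The simulation raised the member list as a whole, so it held no nuclei with many Mbp fragments alone and cannot speak to the purity of the gate. All 9 genes entered every comparison, though some passages print the values of only some of them. Of the 43 other genes those past 2-fold in both libraries, the 5 highest and the 3 lowest are named, and the 10 most similar profiles, except for a gene that is not reported here. The members and lists were chosen with earlier results of these data known. Python 3.11.15, numpy 2.4.6, scipy 1.17.1 and pandas 2.3.3 were used.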

Additional observations from a re-analysis of the deposited data

Results flagged for a closer look

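Mbp moved in opposite directions in the 2 sets of nuclei. With the gate on the other 8 members its stroke level was 1.38 times the sham level in gated nuclei (1.21 to 1.57) and 0.961 times in all other nuclei (0.935 to 0.988). With the breadth gate the ratios were 1.39 (1.17 to 1.65) and 0.962 (0.936 to 0.989). With the gate on all 9 members, where Mbp helps to choose the nuclei, its ratio in gated nuclei was -0.24 on the log2 scale. The difference itself was not tested, since each condition had 1 library.

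The 3686 stroke barcodes that were called as cells but had no more than 20% of their fragments in peaks entered no comparison other than the alternative with all called barcodes. Their level of Ermn was 2.24 times that of kept stroke nuclei (1.81 to 2.79) and their level of Mal 1.503 times (1.30 to 1.73). These are the members whose level per kb in kept stroke nuclei lay below that of evenly spread fragments. The other 7 members were lower in the barcodes left out than in kept stroke nuclei, from 0.382 times for Mog to 0.840 times for Cldn11. The shares of all genes higher or lower in these barcodes were not computed, so this split cannot be read as particular to the members.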

How the results depend on the processing

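No paired analysis was possible because sham and stroke were each sequenced as a single library, which also leaves no replicate to drop. The values below are median log2 ratios of the 9 genes unless stated. Under the alternatives, 281 of 421 values of single genes stayed within their first counting interval, 128 moved outside it and 12 changed sign from a value whose interval excluded 0. Counting also values whose interval held 0, 29 changed sign, most often Opalin and Ermn between the libraries in gated nuclei. In all kept nuclei, stroke over sham (0.31) became 0.056 with all called barcodes, 0.62 over promoters alone and 0.45 when scaled to fragments over promoters. For gated over other nuclei, sham (1.06) became 1.71 at 5-fold, 1.63 over promoters alone, 2.40 with the gate on all 9 members, 2.37 with the breadth gate, 1.65 with the gate on 12 other myelin genes and 3.36 with the thinned breadth gate. Stroke (1.81) became 2.30, 2.32, 2.24, 2.66 and 3.39 with the 5-fold gate, promoters alone, all 9 members, the breadth gate and the thinned breadth gate, and stayed within its interval with the 12 genes. Stroke over sham in gated nuclei (0.79) became 1.45 with nuclei thinned to 3000 fragments, 1.25 over promoters alone, 0.27 with all 9 members and -0.37 with the thinned breadth gate. The ratio of gated shares (1.015) became 0.639 with all called barcodes, 1.80 with the breadth gate, 1.80 with the 12 genes and 3.29 with the thinned breadth gate.

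In all nuclei, Cnp changed sign to -0.27 with all called barcodes and -0.052 over promoters alone, and Mog changed from 0.12 to -0.28 with all called barcodes. Over promoters alone, Mbp in gated over other nuclei was -1.12 in sham and -0.20 in stroke, and Cldn11 in sham was -0.34 with thinned nuclei. For stroke over sham in gated nuclei, Mbp was -0.24 and Mal -0.17 with all 9 members, Cnp was -0.11 with the 12 genes, and with the thinned breadth gate Mbp was -0.37, Mog -0.56, Cnp -0.85 and Mal -0.45. The cause of these changes was not tested. Without a minimum, genes past 2-fold in gated over other nuclei numbered 1308 in place of 231 in sham and 1493 in place of 315 in stroke, and genes past 1.5-fold between the libraries in gated nuclei 5129 in place of 3197. The thinned breadth gate rests on 9 sham and 22 stroke nuclei, and low counts limit Ermn, Mal and single bins most.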
